A study of Mus musculus with 6 samples.

Results

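The semaphorins, their plexin and neuropilin receptors and the plexin domain containing genes were examined in mouse bone marrow mesenchymal stromal cells. These are marrow cells grown on plastic, mainly precursors of bone, fat and cartilage, and macrophages of the marrow can persist among them. All genes whose symbol has the form Sema plus class number and letter, Plxn plus letter and number, Plxdc1 or Plxdc2, and Nrp1 or Nrp2 were taken as members, which gave 33 of the 55401 genes measured, namely 20 semaphorins, 9 plexins, 2 neuropilins and 2 plexin domain containing genes. The cells were flushed from the femur of C57/B6J mice, either wild-type (WT) or NLRP3 knockout (NLRP3-/-), and every culture analysed here had received 3 µg/mL lipopolysaccharide (LPS), a bacterial product sensed by TLR4, for 24 h. The RNA sequencing data comprised 3 WT and 3 knockout libraries, so that genotypes were compared under LPS and the response to LPS itself was not. Neither the age and sex of the mice nor the number of animals or cultures behind each genotype is stated in the labels. The p-values therefore describe the spread among these 6 libraries alone, and that spread may be technical. A difference between starting cultures cannot be told apart from one between genotypes.

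Semaphorins are ligands first known for steering growing axons, and they also act on blood vessels, immune cells and bone. Class 3 semaphorins are secreted, classes 4 to 6 are held in the membrane, and Sema7a is attached to it by a lipid anchor. Plexins are the signalling receptors, whose intracellular part acts on small GTPases of the Ras and Rap families, and most class 3 semaphorins reach them through a neuropilin, a co-receptor that also binds vascular endothelial growth factors. In bone, osteoblast-lineage cells and osteoclasts exchange signals through several of these ligands and receptors. Plxdc1 and Plxdc2 share a short repeat with plexins but are not plexins.

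Values below are FPKM (fragments per kilobase of transcript, scaled to the mapped fragments of the library), a unit that allows levels to be compared between genes. Fold changes are knockout minus WT on log2(FPKM + 1), a scale that understates the change of low genes, with the standard error (SE), and limma was used for the test. Its p-values were adjusted by the Benjamini-Hochberg method over the 12136 genes that reached FPKM 1 in 3 or more of the 6 libraries. Libraries held 53.2 to 66.3 M estimated counts (M, 1e6), about 13.3 to 16.6 M fragments. Nlrp3 had 730, 502 and 444 estimated counts in the WT libraries and 0 in each knockout library, so the targeted gene matched the labels (adjusted p = 0.000408 by limma; the exact two-sided permutation test gave 0.1, the smallest value that 3 against 3 libraries allow). Of the macrophage markers 17 of 17 tested of 20 were higher in the knockout libraries, and their summed FPKM was 691 to 790 in WT and 1612 to 1844 in knockout libraries. Lyz2 stood at 463 and 1145, Adgre1 at 44.0 and 134 and Cd14 at 35.6 and 69.2 (WT and knockout means), and no gene of the list was at 0 throughout. The stromal markers were present, with Col1a1 at 1726 and 1301, Col1a2 at 854 and 657 and Col3a1 at 314 and 180. The largest decreases among the tested stromal markers were in Thy1, from 133.7 to 11.8, and Pdgfra, from 30.15 to 2.96 (adjusted p = 3.75e-06 each by limma). Of 14 tested, 11 were lower and 3 higher, among them Nt5e, which reached FPKM 1 in knockout libraries only (1 higher without knockout replicate 1, 2 or 3). The Col1a1 and Col1a2 calls were lost without WT replicate 1, 2 or 3 and without knockout replicate 1 or 2 (adjusted p of 0.0552 to 0.196 and 0.0574 to 0.159), and with no filter on low values (0.263 and 0.144), and that of Col1a1 also after rescaling to equal medians (0.0519). None of 12 endothelial markers passed the filter: their sum was 2.24 to 2.83 in WT and 0.79 to 1.31 in knockout libraries, Egfl7, Ptprb and Tek averaged 1.19, 0.470 and 0.467 in WT and 0.423, 0.343 and 0.00667 in knockout libraries, and Sox17 was at 0. Of the smooth muscle markers 5 of 7 tested were higher and 2 were not called. Their summed FPKM of 1711 to 1915 in WT and 3242 to 3842 in knockout libraries was mostly Acta2 (means 1156 and 2338). Myh11 and Des of that list lay under the filter and had lower means in knockout libraries (0.537 to 0.123 and 0.773 to 0.320), with overlapping groups for Des. Of the 10 granulocyte markers 4 were tested, with 3 higher and 1 (Camp) lower, and 6 were below FPKM 1 in every library. S100a8 reached FPKM 1 in knockout libraries only, and Mmp8 in 1 WT and 3 knockout libraries. The Camp call was lost without WT replicate 1 or 3. Of the 8 osteoclast markers 4 were tested, with 3 lower, and 4 were below FPKM 1 in every library. Trac and Tubb3 were the only tested genes of the lymphoid and the Schwann and neural lists, both higher. Trac reached FPKM 1 in 1 WT and 3 knockout libraries. The other 9 and 8 genes of these lists were below FPKM 1 in every library, 6 and 3 of them at 0. One of them, Mbp, was lower in the knockout libraries without overlap (means 0.900 in WT and 0.407 in knockout libraries). The part of these differences in cell type markers in the results on semaphorins and their receptors was not tested. In bulk RNA, fewer cells of a type and less RNA per cell cannot be told apart.

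Of the 33 members 16 passed the expression filter and 17 lay under it. Among the 16, 8 were higher in the knockout cultures (Sema3a, Sema3b, Sema3c, Sema3e, Sema7a, Nrp2, Plxnb1 and Plxnd1), 2 were lower (Nrp1 and Plxna3) and 6 were not called. Over all tested genes 10.4% were called higher and 9.2% lower, 19.6% in either direction. Groups did not overlap for 11 of the 16, against 36.7% of all tested genes (18.8% with the knockout libraries above, 18% with them below). Sema3b and Sema3e had no WT library at an FPKM of 1 and could pass the filter only because the knockout level was higher. The counts over the tested members therefore describe the tested members only. With no filter on low values limma called Sema3b and Sema3e higher (adjusted p = 0.00559 and 0.00699). Without knockout replicate 1 or 2 the number of higher members was 5, since Sema3b and Sema3e then fell under the filter and Sema3a was not called.

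**Figure D1:**
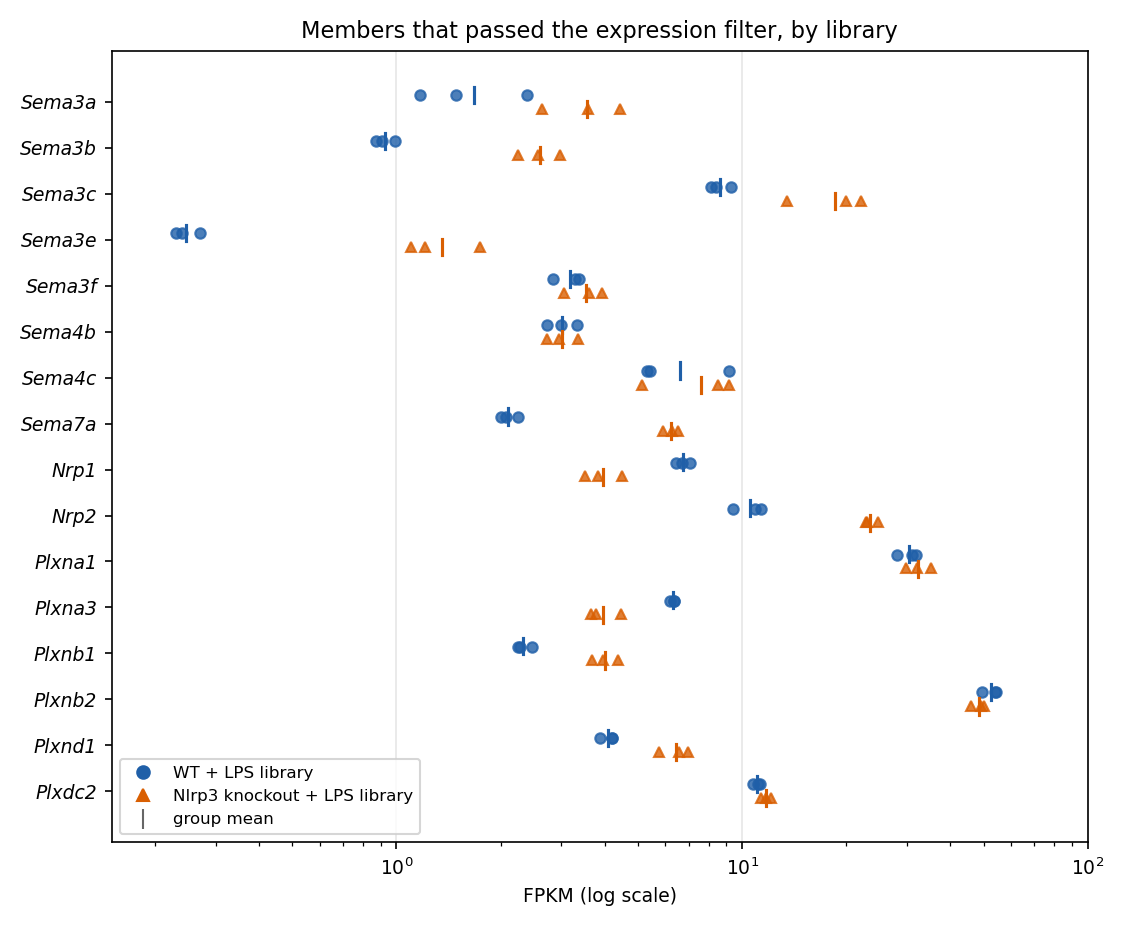
FPKM (log axis) of the 16 members that passed the expression filter in each of the 3 WT and 3 knockout libraries, with a bar at each group mean. Sema3c, Sema3e, Sema7a and Nrp2 show knockout points to the right of all WT points, Nrp1 and Plxna3 show them to the left, and those of Plxna1 and Plxnb2 overlap.

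Windows of 250 bases upstream of the RefSeq start are shown for 4 of the called members, 2 ligands that rose (Sema7a and Sema3e), 1 receptor that rose (Plxnd1) and 1 that fell (Plxna3), because these windows overlap no base of the gene's span in the deposited table. Sequences and coordinates are from RefSeq on GRCm38.p6, are written 5′ to 3′ on the gene's strand, and capitals mark matches to the GC box GGGCGG on either strand.
Sema7a, chr9:57939862-57940111, plus strand: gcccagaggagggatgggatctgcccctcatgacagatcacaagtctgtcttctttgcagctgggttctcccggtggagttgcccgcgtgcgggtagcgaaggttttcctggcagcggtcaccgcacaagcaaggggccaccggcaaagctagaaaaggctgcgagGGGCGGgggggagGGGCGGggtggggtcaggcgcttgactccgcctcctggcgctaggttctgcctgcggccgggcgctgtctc
Sema3e, chr5:14025026-14025275, plus strand: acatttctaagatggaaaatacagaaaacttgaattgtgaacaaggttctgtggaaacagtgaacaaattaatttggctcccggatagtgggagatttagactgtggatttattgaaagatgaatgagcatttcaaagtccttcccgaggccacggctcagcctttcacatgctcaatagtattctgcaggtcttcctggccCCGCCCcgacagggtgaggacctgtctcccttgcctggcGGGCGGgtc
Plxnd1, chr6:115995006-115995255, minus strand: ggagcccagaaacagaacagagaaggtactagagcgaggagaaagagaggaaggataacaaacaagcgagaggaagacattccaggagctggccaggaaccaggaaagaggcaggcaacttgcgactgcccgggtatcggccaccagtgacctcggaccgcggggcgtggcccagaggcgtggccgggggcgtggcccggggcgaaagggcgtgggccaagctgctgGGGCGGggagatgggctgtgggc
Plxna3, chrX:74328816-74329065, plus strand: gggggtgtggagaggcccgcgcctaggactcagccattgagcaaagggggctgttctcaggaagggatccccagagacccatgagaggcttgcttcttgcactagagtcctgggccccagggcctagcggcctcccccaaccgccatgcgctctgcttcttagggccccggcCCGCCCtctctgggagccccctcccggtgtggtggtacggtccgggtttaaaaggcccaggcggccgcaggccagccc
The GC box was thus found both in the windows of members that rose and in that of Plxna3. RefSeq gave 37 such windows for 26 of the 33 members, 27 of which held a GC box, as did 8 of the 9 windows of called members (9 of the 10 had an entry) and 32.7% of all 32851 windows of the same length. The 9 windows of called members had no match on either strand to TGANTCA (AP-1, in 6.75% of all windows), TGACGTCA (CRE, 1.55%), TATAAA (12.4%), CCAAT (33.8%), TTCNNNGAA (STAT, 7.02%), CACGTG (6.02%) or the kappaB motif (3.9%). GC content was 66.4% for Sema7a, 48.0% for Sema3e, 64.8% for Plxnd1 and 68.0% for Plxna3, against a median of 52.4% over all windows. A match is a description of letters and was not measured as a binding site.

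Among the semaphorins, Sema7a, the lipid-anchored ligand that binds Plxnc1 and beta 1 integrins (ENSMUSG00000038264, GRCm38 chromosome 9, positions 57940112 to 57962865, plus strand), measured 2.08, 2.24 and 2.00 FPKM in the WT libraries and 6.53, 5.90 and 6.25 FPKM in the knockout libraries, each in the order of replicates 1, 2 and 3, as are all triplets below. Every knockout library lay above every WT library, and the libraries of a group lay close together. The mean rose from 2.11 ± 0.12 to 6.23 ± 0.32 (SD, n = 3 each), which is 2.96-fold, with a log2 fold change of 1.22 ± 0.08 SE (adjusted p = 0.000112).

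Of the secreted class 3 ligands, Sema3a, Sema3b, Sema3c and Sema3e were called higher and Sema3f was not called; for Sema3b and Sema3e the filter left no other direction. Sema3c, a class 3 ligand of both neuropilins (ENSMUSG00000028780, chromosome 5, 17574281 to 17730268, plus strand), had values of 8.15, 9.30 and 8.42 in WT and 19.92, 22.10 and 13.52 in knockout libraries. The knockout libraries were all above the WT libraries, with replicate 3 the lowest of them. Sema3c rose 2.15-fold, from 8.62 ± 0.60 to 18.5 ± 4.5 (log2 fold change 0.99 ± 0.17, adjusted p = 0.00833), and was the most abundant semaphorin of both groups by mean level. Sema3e, which binds Plxnd1 without a neuropilin (ENSMUSG00000063531, chromosome 5, 14025276 to 14256689, plus strand), was measured at 0.24, 0.23 and 0.27 in WT and at 1.21, 1.74 and 1.10 in knockout libraries. It was low in all WT libraries and above 1 in all knockout libraries. Its mean rose 5.47-fold, from 0.247 ± 0.021 to 1.35 ± 0.34, while the log2 fold change after adding 1 was 0.90 ± 0.12 (adjusted p = 0.00243). Sema3b (ENSMUSG00000057969, chromosome 9, 107597674 to 107609229), a neuropilin ligand described as a tumour suppressor, was measured at 0.91, 0.87 and 0.99 in WT and 2.25, 2.57 and 2.98 in knockout libraries. The groups were apart and the mean rose 2.82-fold, from 0.923 ± 0.061 to 2.60 ± 0.37 (0.90 ± 0.10, adjusted p = 0.00114).

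Sema3a, the classical repulsive ligand of Nrp1 (ENSMUSG00000028883, chromosome 5, 13125414 to 13600988, plus strand), had 2.38, 1.17 and 1.49 in WT and 4.44, 3.59 and 2.63 in knockout libraries. The groups did not overlap, but the highest WT library and the lowest knockout library were close. Its 2.12-fold increase (log2 fold change 0.77 ± 0.21) passed narrowly (adjusted p = 0.0463). The call was lost without WT replicate 2 or 3 (adjusted p = 0.132 and 0.138), without knockout replicate 1 or 2 (0.144 and 0.119), with no filter on low values (0.101) and with a pseudocount of 0.01 (0.0503). Sema3f, an Nrp2 ligand that lies near Sema3b on chromosome 9, was measured at 3.29, 3.37 and 2.84 in WT and 3.06, 3.61 and 3.92 in knockout libraries. These values overlap and the gene was not called (0.12, 95% interval -0.13 to 0.36, adjusted p = 0.491).

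The membrane-bound class 4 ligands above the filter were not called. Sema4c, a ligand of Plxnb2, was measured at 9.14, 5.29 and 5.43 in WT and 9.16, 8.49 and 5.12 in knockout libraries. Each group thus held high and low libraries, and the interval of the log2 difference was wide, from -0.44 to 0.79 (adjusted p = 0.696). Sema4b averaged 3.02 ± 0.30 in WT and 3.01 ± 0.32 in knockout libraries (interval -0.24 to 0.23, adjusted p = 0.978). Of the exon bases of Sema4c 7.27% are shared with D430040D24Rik on the opposite strand, and the labels do not say whether counting used the strand.

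Summed over the 20 semaphorins, FPKM was 33.1, 28.7 and 27.7 in WT and 53.2, 55.4 and 42.2 in knockout libraries. Class 3 took 46.0 to 52.8% of this sum in WT and 57.8 to 61.3% in knockout libraries, and Sema7a 6.29 to 7.82% and 10.7 to 14.8%. Sema4c took 18.5 to 27.6% of it in WT and 12.1 to 17.2% in knockout libraries, while its own level was not called different.

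**Figure D2:**
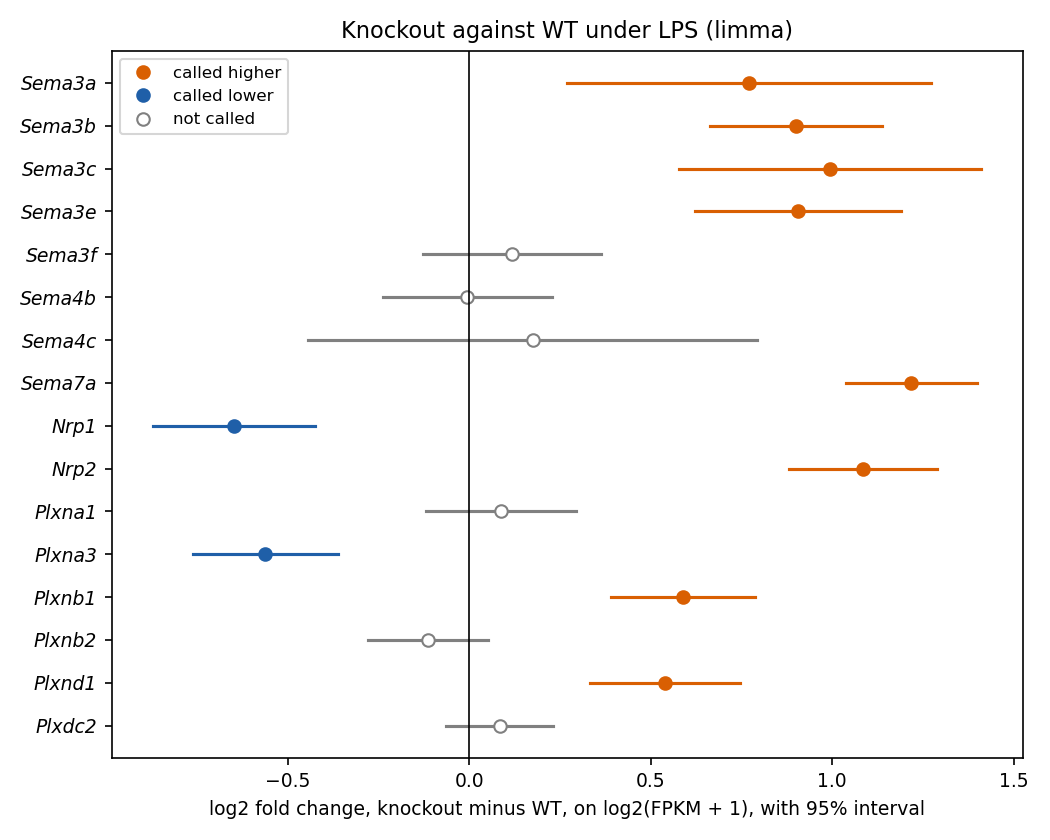
Log2 fold change (knockout minus WT, on log2(FPKM + 1)) with its 95% interval for the 16 tested members, from limma over 3 WT and 3 knockout libraries. Filled orange and blue points are called higher and lower, open grey points are not called, and Sema4c has the widest interval of the uncalled members.

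The neuropilins moved in opposite directions. Nrp2, the co-receptor of Sema3f and of Vegfc (ENSMUSG00000025969, chromosome 1, 62703285 to 62818695, plus strand), had 10.93, 11.34 and 9.42 in WT and 22.83, 24.71 and 22.90 in knockout libraries. The groups were clearly apart and Nrp2 rose 2.22-fold (log2 fold change 1.08 ± 0.08, adjusted p = 0.000282). Nrp1, the co-receptor of Sema3a and Vegfa (ENSMUSG00000025810, chromosome 8, 128358604 to 128462081, plus strand), had 6.72, 7.05 and 6.43 in WT and 3.52, 4.48 and 3.84 in knockout libraries. Every knockout library was below every WT library, and the mean was 1.71-fold lower (-0.65 ± 0.09, adjusted p = 0.0036). Both calls were kept in each of the 13 alternative settings, 6 of which left out 1 library. The ratio of Nrp2 to Nrp1 was 1.63, 1.61 and 1.47 in WT and 6.49, 5.52 and 5.96 in knockout libraries. Nrp2 therefore made up 59.4 to 61.9% of neuropilin FPKM in WT and 84.7 to 86.6% in knockout libraries.

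**Figure D3:**
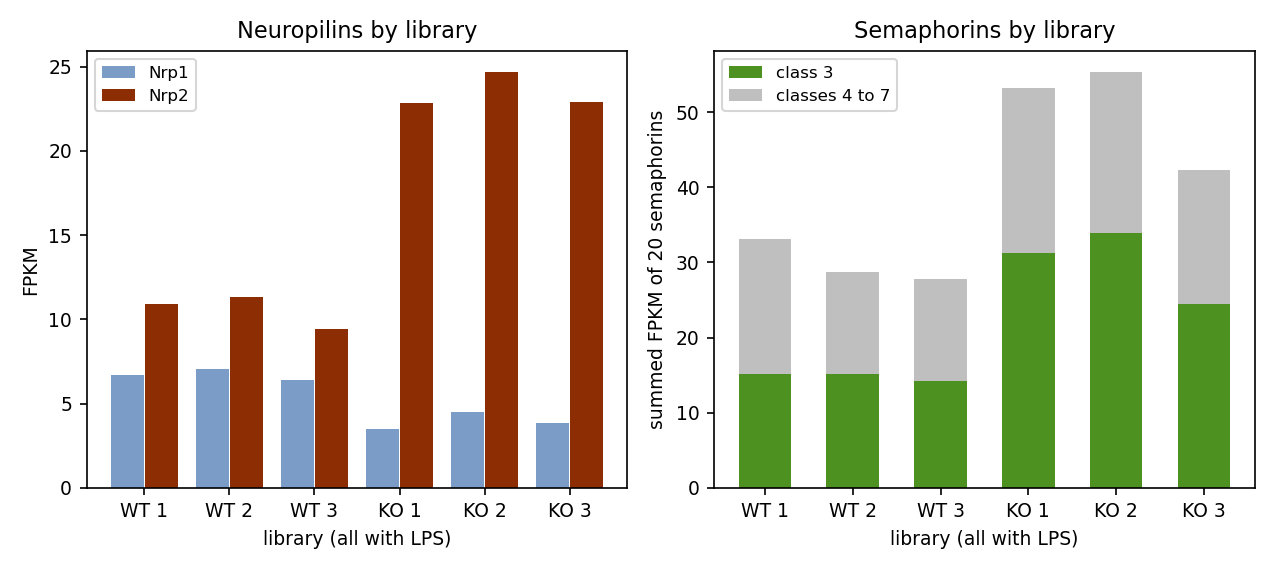
Left, FPKM of Nrp1 and Nrp2 in each library, and right, FPKM summed over the 20 semaphorins, split into class 3 and classes 4 to 7; KO stands for NLRP3 knockout and bars start at 0. Nrp2 is between 9.42 and 11.34 in WT and between 22.83 and 24.71 in knockout libraries while Nrp1 is lower in the latter, and the class 3 part is larger in all 3 knockout libraries.

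Plexins as a whole kept a similar sum, 90.5, 99.5 and 98.4 FPKM in WT and 90.1, 102.2 and 96.2 in knockout libraries, in which Plxna1 and Plxnb2 made up 85.6 to 86.5% and 83.4 to 84.3%. Plxnb2, a receptor for Sema4c and angiogenin, was the highest member in both groups, with 49.46, 54.11 and 53.91 in WT and 46.05, 50.11 and 49.07 in knockout libraries. These ranges overlap, and the log2 difference of -0.11 was not called (interval -0.28 to 0.05, adjusted p = 0.321). Plxna1, which pairs with neuropilins and with Sema6d, was second in both groups with 27.98, 31.93 and 31.03 in WT and 29.74, 35.08 and 32.04 in knockout libraries. It too overlapped and was not called (0.09, interval -0.12 to 0.29, adjusted p = 0.551). Of its exon bases 10.7% are shared with Gm26811 on the opposite strand, a gene with mean FPKM of 0.557 in WT and 0.597 in knockout libraries.

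The called plexins were less abundant than these. Plxnd1, the receptor of Sema3e (ENSMUSG00000030123, chromosome 6, 115954811 to 115995005, minus strand), had 3.88, 4.19 and 4.21 in WT and 5.74, 6.95 and 6.56 in knockout libraries. It rose 1.57-fold without overlap (0.54 ± 0.09, adjusted p = 0.00588). Plxnb1, the receptor of Sema4d (ENSMUSG00000053646, chromosome 9, 109095389 to 109119917, plus strand), had 2.27, 2.47 and 2.24 in WT and 3.69, 4.36 and 3.97 in knockout libraries. Its mean rose 1.72-fold, again with groups apart (0.59 ± 0.08, adjusted p = 0.00338). Plxna3, a partner of the neuropilins (ENSMUSG00000031398, chromosome X, 74329066 to 74344689, plus strand), had 6.36, 6.19 and 6.37 in WT and 3.79, 4.45 and 3.65 in knockout libraries. The knockout libraries were all below the WT libraries and the mean was 1.59-fold lower (-0.56 ± 0.08, adjusted p = 0.00431). Plxna3 and Plxnd1 thus changed place, from the eighth and the ninth of all members by mean level in WT to the tenth and the seventh in knockout cultures. The values of Plxnd1 overlapped those of its neighbours Sema4c and Sema7a in the knockout libraries, so that this order is not fixed. Plxdc2, a plexin domain containing membrane protein, had 11.23, 11.08 and 10.72 in WT and 11.74, 12.09 and 11.35 in knockout libraries. The groups did not overlap, yet the log2 difference of 0.08 was small and not called (interval -0.06 to 0.23, adjusted p = 0.411).

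The 17 members below the filter had FPKM values between 0 and 0.91. A quasi-likelihood fit of their estimated counts in edgeR covered 15 of them and called 3 higher (Sema5a, Sema4f and Plxna2) and 2 lower (Sema6a and Plxna4). Over all 17479 genes that edgeR tested, 8.48% were called higher and 8.12% lower, 16.6% in either direction. That set includes the genes above the filter. No share over the genes under the filter alone was computed, here or for DESeq2 below. Plxna2, a receptor of Sema6a, had 0.29, 0.28 and 0.28 in WT and 0.79, 0.91 and 0.70 in knockout libraries, with no overlap (edgeR log2 fold change 1.47, adjusted p = 0.000334). Sema5a, a membrane ligand with thrombospondin repeats, had 0.09, 0.09 and 0.07 in WT and 0.30, 0.43 and 0.30 in knockout libraries (edgeR 1.99, adjusted p = 0.000701). Sema4f, a membrane-bound class 4 ligand, had 0.10, 0.13 and 0.13 in WT and 0.38, 0.40 and 0.48 in knockout libraries (edgeR 1.78, adjusted p = 0.00322). In these 3 genes every knockout library was the higher. Sema4f rests on few fragments, about 31.75 summed over the WT libraries and 111.8 over the knockout libraries.

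Sema6a and Plxna4 were the low members called lower. Sema6a, a transmembrane ligand of Plxna2 and Plxna4, had 0.18, 0.22 and 0.15 in WT and 0.04, 0.03 and 0.03 in knockout libraries (edgeR -2.38, adjusted p = 0.00175). Plxna4, a receptor of class 6 and, with neuropilins, of class 3 ligands, had 0.19, 0.16 and 0.16 in WT and 0.06, 0.05 and 0.05 in knockout libraries (edgeR -1.75, adjusted p = 0.00241). All knockout libraries lay below the WT libraries. These values rest on few fragments, about 80.5 and 15.8 for Sema6a and 118 and 36.2 for Plxna4 summed over the WT and the knockout libraries. DESeq2, which called 8.45% of 21437 genes higher and 7.82% lower (16.3% in all), called the same 5 genes in the same direction. Both methods took the estimated counts undivided, at an inferred 4 counts per fragment, so that p-values may be too small for genes with few fragments.

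The other low members included genes known from immune cells. Sema4d, a ligand of Plxnb1 made by lymphocytes and osteoclasts, averaged 0.623 ± 0.087 in WT and 0.670 ± 0.062 in knockout libraries (edgeR adjusted p = 0.797). Sema4a, an immune regulator, stood at 0.780 ± 0.040 and 0.497 ± 0.136 (edgeR adjusted p = 0.109), and Plxnc1, the plexin that binds Sema7a, at 0.127 ± 0.051 and 0.227 ± 0.025 (edgeR adjusted p = 0.175). Plxdc1 stood at 0.243 ± 0.045 and 0.103 ± 0.060 (edgeR adjusted p = 0.152). The groups of Sema4a, Plxnc1 and Plxdc1 did not overlap, nor did those of Sema3g (edgeR adjusted p = 0.12), and none of these genes passed the test. The share of all genes under the filter whose groups did not overlap was not computed, so these separations have no background beside them. Sema3d, Sema4g, Sema6b, Sema6c and Sema6d were not called either. Sema5b and Plxnb3 were at 0 in all WT libraries and had about 1 fragment in the knockout libraries together, too little for a comparison at this depth.

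**Figure D4:**
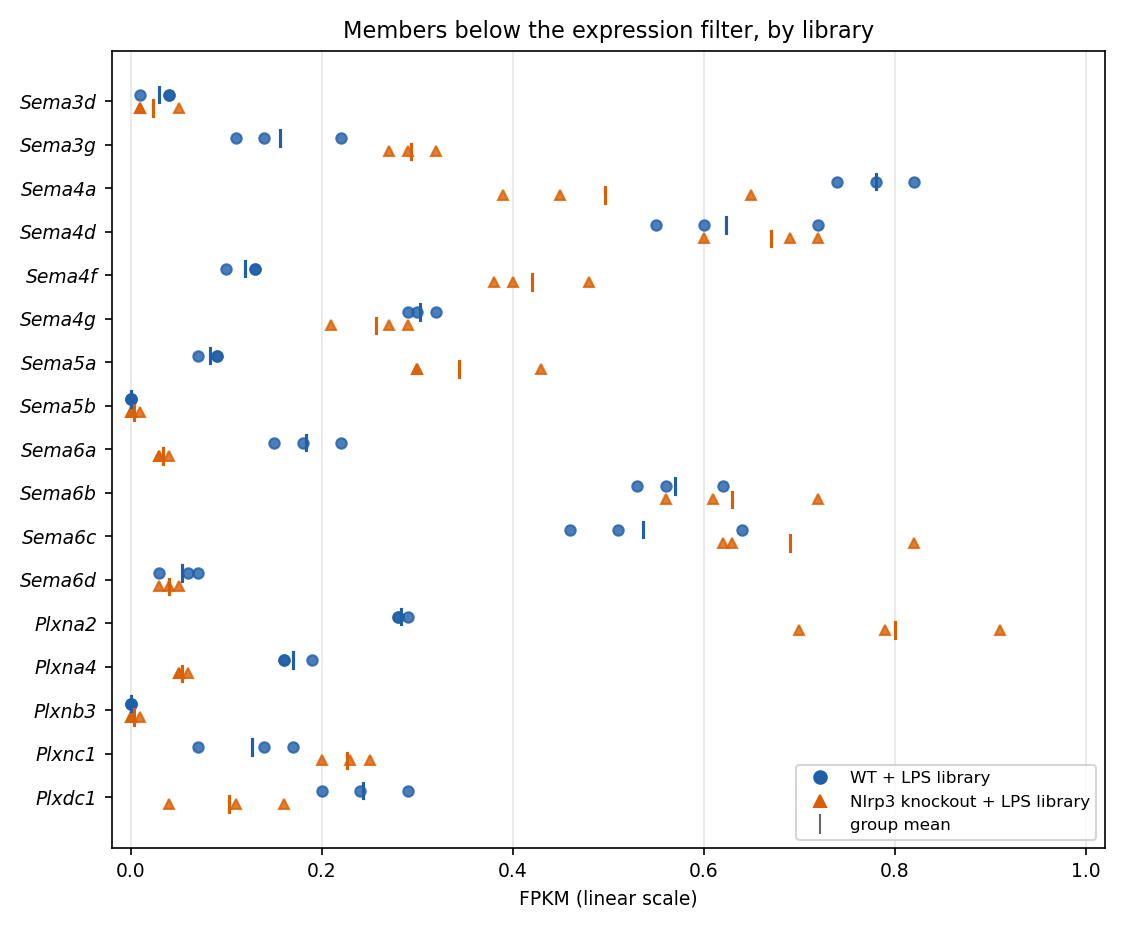
FPKM (linear axis) of the 17 members below the expression filter in each of the 3 WT and 3 knockout libraries, with a bar at each group mean. Plxna2, Sema4f and Sema5a have all knockout points to the right of the WT points, Sema6a and Plxna4 have them to the left, and all values lie at or below 0.91.

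Sema3d, Sema3a, Sema3e and Sema3c lie in this order on chromosome 5 within 5.35 Mb (GRCm38, 12383385 to 17730268). Sema3a, Sema3e and Sema3c rose, and Sema3d had 0.01 to 0.05 FPKM in the 6 libraries. Of the 5 other tested genes in this span, Speer3 was called higher (0.483 to 1.24, adjusted p = 0.00626 by limma; it too reached FPKM 1 in knockout libraries only), Hgf was called lower and 3 were not called. Hgf lies between Sema3e and Sema3c, so that the called genes of this span did not share one direction.

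Other ligands and co-receptors of neuropilins and plexins were read from a list of 24 genes, of which 15 were tested. Of these, 3 were called higher and 7 lower, against 10.4% and 9.2% of all tested genes. The median log2 fold change was -0.24 against 0.01 over all tested genes. Both growth factors of the lymphatic type fell, Vegfd from 15.3 ± 0.95 to 4.71 ± 0.16 FPKM (-1.51 ± 0.07, adjusted p = 3.8e-05) and Vegfc, a Nrp2 ligand, from 5.23 ± 0.43 to 1.81 ± 0.17 (-1.15 ± 0.09, adjusted p = 0.00028). Hgf, the ligand of Met, fell from 2.18 ± 0.06 to 0.827 ± 0.365 (-0.82, adjusted p = 0.00923). The adhesion molecule Ncam1 rose from 11.2 to 17.3 (0.58, adjusted p = 0.00114), and the myeloid adaptor Tyrobp, which signals with Trem2 beside Plxna1, rose from 23.7 to 57.1 (1.23, adjusted p = 0.00038). Trem2 stood at 0.793 and 1.38 (0.41, adjusted p = 0.0239) and lost its call without WT replicate 1, 2 or 3 (0.0689, 0.0918 and 0.0683) and with no filter (0.0646). Trem2 reached FPKM 1 in no WT library and could pass the filter only because its knockout level was higher. Tyrobp is also on the macrophage list, all tested genes of which were higher. The number of lower genes of this list was 4, 3 and 3 without WT replicate 1, WT replicate 3 and knockout replicate 1.

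Intracellular genes assigned to plexin signalling were read from a further list, whether or not their products bind plexins. Of 42 listed genes 39 were tested, 9 were higher, 3 lower and 27 not called, with a median log2 fold change of 0.06. Over all tested genes 10.4% were called higher and 9.2% lower. Rnd1, a small GTPase that binds plexins, rose from 7.31 ± 0.68 to 21.9 ± 2.2 FPKM (1.46 ± 0.10, adjusted p = 0.00016), its relative Rnd3 rose 2.02-fold from 17.3 ± 0.5 (0.95 ± 0.15, adjusted p = 0.00578), and Dpysl3, a collapsin response mediator that relays semaphorin signals to the cytoskeleton, from 17.2 ± 1.0 to 43.9 ± 2.0 (2.55-fold, adjusted p = 6.23e-05). The GTPase Rras, a substrate of plexins, fell from 87.3 to 65.7, Micall2 from 24.5 to 18.8 and the cofilin kinase Limk1 from 4.20 to 3.17 (adjusted p = 0.0242, 0.0283 and 0.0371). Those 3 decreases did not hold in every subset of libraries: none was called lower (0 of 39) without WT replicate 1 or 3 or knockout replicate 1 or 2, and 1 was without WT replicate 2, while 5 genes were called higher when WT replicate 1 was left out. Limk1 was also not called with no filter on low values (adjusted p = 0.0703 by limma). Of 7 tested proteases that cut semaphorins or related proteins, Pcsk6 rose from 1.64 to 3.93 (0.90, adjusted p = 0.000349) and Adamts1 fell from 19.8 to 15.1 (adjusted p = 0.0173, but 0.0502, 0.0623 and 0.074 without WT replicate 1, 2 or 3 and 0.0701 without knockout replicate 1), with a median of -0.06.

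Other guidance families were set beside the semaphorins as a description. The shares over all tested genes were again 10.4% called higher and 9.2% called lower. Of 5 tested SLIT and ROBO genes none was higher and 2 were lower (median -0.09): Slit3 fell from 49.8 ± 3.7 to 8.04 ± 0.76 FPKM (-2.49 ± 0.09, adjusted p = 1.66e-05) and Slit2 from 9.21 ± 1.27 to 4.29 ± 0.67 (-0.95, adjusted p = 0.00292). Of 8 tested netrins, receptors and related genes 2 were higher and 3 lower (median -0.11). The netrin receptor Unc5b rose from 21.6 to 47.7 (1.11, adjusted p = 0.0014), whereas Rgma fell by 1.29 and Ntn4 fell by 0.95 on the log2 scale (adjusted p = 0.000175 and 0.000614). Ntng2 (2.07 to 3.62) was not called without WT replicate 1 or 3 or knockout replicate 2 (adjusted p of 0.0681 to 0.0714), and Neo1 (12.8 to 9.56) was not called without WT replicate 1 or 2 or knockout replicate 2 or 3 (0.0693 to 0.139), and neither was with no filter on low values (0.0505 and 0.0688). Of 13 tested ephrins and EPH receptors 6 were higher and 3 lower (median 0.02), among them Epha3 (0.333 to 2.70), Epha2 (8.86 to 24.7) and Efnb1 (8.78 to 19.1) upwards and Epha1 (1.49 to 0.247), Ephb3 (6.11 to 2.78) and Ephb4 (23.8 to 15.1) downwards, with adjusted p of 0.000937 or smaller by limma. Epha3 reached FPKM 1 in knockout libraries only and Epha1 in WT libraries only, so that the filter fixed the direction of both.

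**Figure D5:**
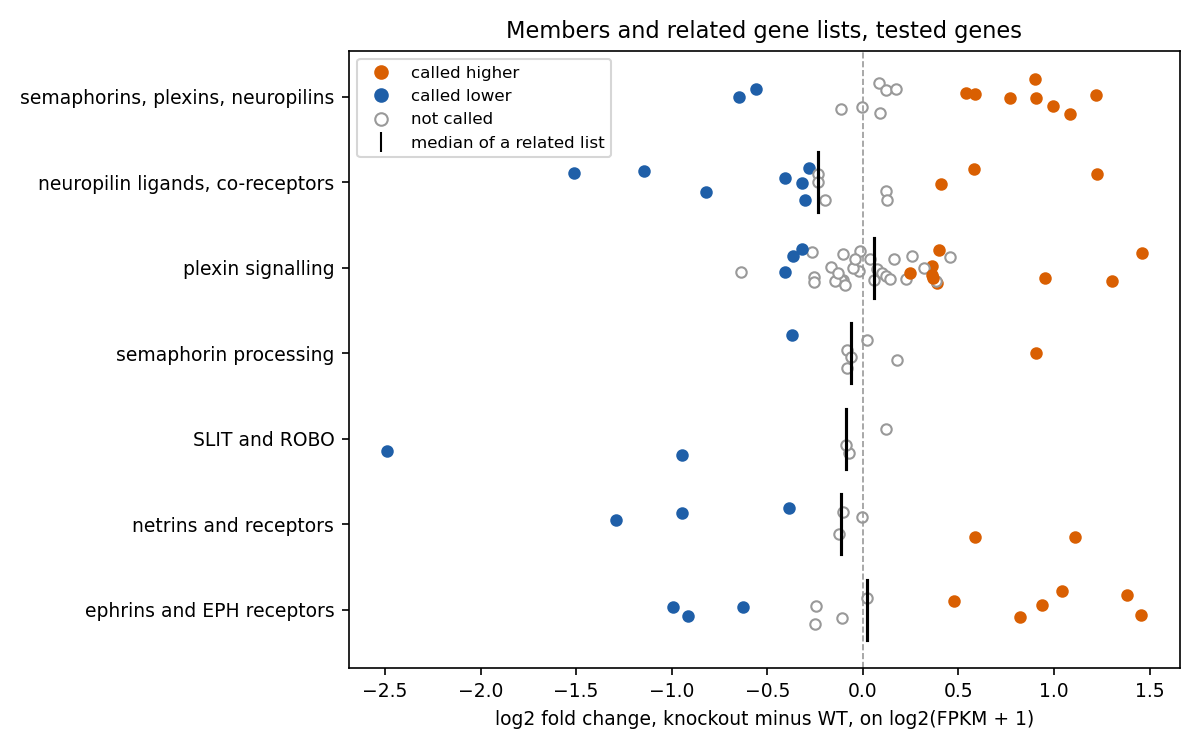
Log2 fold change (knockout minus WT, on log2(FPKM + 1)) of each tested gene of the members and of 6 related lists; orange, blue and open grey points are called higher, called lower and not called, vertical position within a row is jitter, and black bars are medians of the related lists. Slit3 is the leftmost point at -2.49, and the members hold 8 higher and 2 lower genes.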

How the data were processed

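The submitters' processing notes name GRCm38 and the tools cutadapt 1.9, HISAT2 2.0.4 and StringTie 1.3.4d, with no role stated for each, while the counting step, annotation release, strand use and filters were not given in the sources used here. The authors deposited FPKM to 2 decimals and estimated counts as whole numbers. Over 5837 well-covered genes 100% of count to FPKM ratios lay within 1% of 1 factor per library, and 44.4% of counts up to 16 were multiples of 4, so a fragment was taken as 4 counts, an inference from the values. Deposited FPKM were tested as log2(FPKM + 1) by limma 3.58.1 (R 4.3.3; lmFit, eBayes with trend), with genotype as sole factor, two-sided and adjusted by Benjamini-Hochberg at 0.05. The deposited estimated counts, not divided by 4, were tested with edgeR 4.0.16 (quasi-likelihood, TMM) and DESeq2 1.42.0 as alternatives, and the scripts were tested on simulated data. Further alternatives were pseudocounts of 0.1 and 0.01, no filter, rescaling to equal medians, the replicate number as a block and leaving out each library.

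Members, gene lists and marker lists were chosen with earlier results of these data known. Called members, members with a group mean of at least 10 FPKM and low members called by edgeR are given in every library. Of each list, up to 3 called genes per direction with the largest change are named, and up to 3 macrophage, stromal and endothelial markers by mean level. The other genes named (Sox17, Trac, Tubb3, Mbp, Speer3, Nt5e, Thy1, Pdgfra, S100a8, Mmp8, Camp, Acta2, Myh11, Des and uncalled members) were chosen after their values were seen. The sample titles carry day 1, 2 and 3, whereas another label has day 1 for all 6 libraries, so the number served only as a replicate name.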

Additional observations from a re-analysis of the deposited data

How the results depend on the processing

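Of the 10 called members 9 kept direction and call in every alternative that tested them; the exception was Sema3a. Sema3b and Sema3e were not tested without any 1 knockout library, since the filter asks for 3 libraries. With 1 library left out, the number of higher members ranged from 5 to 8 and that of lower members was 2; over all genes, 705 to 1464 were higher and 583 to 1281 lower. Lower members numbered 4 with no filter on low values, with edgeR and with DESeq2, because Sema6a and Plxna4 were then tested, and DESeq2 called 1677 genes lower over all. Sema4b, not called in any setting, was -0.01, and ranged from -0.0659 to 0.0498 with 1 library left out, positive without WT replicate 1 or knockout replicate 1 or 3. Rescaling shifted the median log2 change of all genes by -0.02. The replicate numbers were not treated as pairs, because the labels leave their meaning unclear. Deviations of same-numbered libraries correlated at 0.02, 0.17 and 0.10, and those of different-numbered libraries at -0.17 to 0.08. These values do not settle whether the numbers mark pairs. With the replicate block 1106 genes were higher and 980 lower, 8 members higher and 2 lower, and among the named genes Limk1 (adjusted p = 0.0755) and Ntng2 (0.052) lost their calls. Members near 0.1 FPKM rest on few fragments per group (Sema6a, about 15.8 in the knockout libraries together), which limits what can be seen there.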
